A study of Mus musculus with 6 samples.

Results

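The expression of 9 genes of microglia and of the complement protein C1q was followed in a part of the embryonic mouse forebrain, the lateral ganglionic eminence (LGE), with and without Dlx1 and Dlx2. They are Csf1r, Cx3cr1, Aif1, P2ry12, Trem2, Tyrobp, C1qa, C1qb and C1qc. They were chosen by name, with earlier results of these data known, and each matched 1 of the 21286 genes in the table. All 9 passed the filter on low counts, which left 15326 genes to test. RNA came from the LGE at embryonic day 16.5, as 3 libraries from wild type littermates and 3 from Dlx1/2 -/- mutants. All 6 libraries were on a mixed background of C57BL/6J, 129S6 and CD1. The labels describe both genes as mutant and say neither which parts the alleles remove nor whether a library pools embryos. Since no label ties a library to an embryo of its own, the p-values reflect only how these libraries scatter, which may be technical.

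Microglia are the resident macrophages of the brain. They arise from yolk sac progenitors and enter the forebrain during embryogenesis, so they are not made by LGE progenitors. Their survival depends on the receptor Csf1r, their surface carries the receptors Cx3cr1 and P2ry12, and Aif1 encodes the protein Iba1 by which they are usually stained. Trem2 binds lipids and signals through the adaptor Tyrobp. C1q is the recognition part of the classical complement pathway, built from the chains of C1qa, C1qb and C1qc, and in the brain microglia are its main source. In bulk tissue, fewer cells of a type and less RNA per cell cannot be told apart.

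The libraries held 10711630 to 16588359 counts. Dlx2 was at 436.3 ± 29.8 CPM (counts scaled to library size) in wild type and 16.8 ± 1.68 in the mutant, and Dlx1 at 857.9 ± 35.7 and 122.1 ± 14.4 (mean ± SD, n = 3). CPM stands for counts per 1e+06 counts, scaled by the TMM method of edgeR. Xist, the RNA of the inactive X chromosome, had 42107 reads in wild type replicate 1 and 72844 in mutant replicate 3 and at most 158 in the other libraries, so each group held 1 library with it. Of the LGE markers Meis2, Gad1, Gad2, Ebf1, Bcl11b and Foxp1, all were present, from 207.3 CPM of Foxp1 to 1183 CPM of Bcl11b in wild type, and all were lower in the mutant.

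The 3 C1q genes lie side by side on the minus strand of chromosome 4 (GRCm38, GENCODE M21). C1qb spans 136880129 to 136886187, C1qc 136889804 to 136893065 and C1qa 136895917 to 136898803, 18675 bases in all. Trem2 (chromosome 17, 48346401 to 48354147, plus strand) and Aif1 (35170991 to 35176068, minus strand) share chromosome 17. Tyrobp is on chromosome 7 (30413760 to 30417585), P2ry12 on chromosome 3 (59216272 to 59262871) and Cx3cr1 on chromosome 9 (119901616 to 120069879). P2ry12 lies inside Med12l, which is read from the other strand and went from 3515 to 1749 reads per group. No source used here states a strand setting, so reads of P2ry12 and Med12l may not be separated. Csf1r and Cx3cr1 overlap other genes as well, and the C1q genes, Trem2, Tyrobp and Aif1 overlap none.

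The stretches before the start sites of C1qb and Trem2 are shown because both genes were higher in all 3 mutant libraries and their windows hold no annotated exon. Each is the 250 bases before the RefSeq start (GRCm38.p6), read along the gene's own strand. C1qb is at chr4:136886201-136886450 and Trem2 at chr17:48346151-48346400. Capitals mark GAGGAA on either strand, the core of the site bound by the myeloid factor PU.1, which Spi1 encodes.
C1qb: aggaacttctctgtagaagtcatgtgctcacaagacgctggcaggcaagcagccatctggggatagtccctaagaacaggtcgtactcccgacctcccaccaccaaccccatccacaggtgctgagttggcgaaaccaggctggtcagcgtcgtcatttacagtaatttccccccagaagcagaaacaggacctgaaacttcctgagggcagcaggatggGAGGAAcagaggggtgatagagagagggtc
Trem2: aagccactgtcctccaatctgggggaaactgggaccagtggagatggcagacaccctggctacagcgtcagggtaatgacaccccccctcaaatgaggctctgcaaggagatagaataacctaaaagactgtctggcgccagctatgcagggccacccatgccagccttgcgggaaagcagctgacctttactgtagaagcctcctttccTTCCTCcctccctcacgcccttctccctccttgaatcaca
The match begins 30 bases before the start of C1qb, on the gene's strand, and 40 bases before that of Trem2, on the other strand. Of the 6 members whose RefSeq window was searched, 4 had a match (C1qb, C1qc, Aif1 and Trem2), and P2ry12 and Cx3cr1 had none. The remaining members were not searched, so this count does not cover all 9 genes. Of all 32851 windows of this length, 23.3% had one. A match is a description of these letters and not a binding site.

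Of the 9 genes, 8 had a higher mean in the mutant, but only 1 passed the test. Tyrobp was called higher, at 1.69-fold, and none was called lower. Across all genes, 11.2% were called higher and 12.8% lower (quasi-likelihood test of edgeR, p adjusted by Benjamini-Hochberg, threshold 0.05), so 1 of 9 is near the background. The median log2 fold change of the 9 was 0.49, against 0.003 over all genes tested. All 3 mutant libraries lay above all 3 wild type libraries in 6 of the 9 genes, and in 20.7% of all genes. The 9 genes were chosen with earlier results of these data known. Some of them vary together, as C1qb and C1qc do (Pearson's r = 0.952), so they do not count as independent genes. The adjusted p of 4 further genes (C1qa, Cx3cr1, C1qb and C1qc) lay between 0.0515 and 0.0652, just past the threshold. At an unadjusted p below 0.05 there were 5, against 36.5% of all genes tested. The summed level of the 9 genes was 53.5 to 62.9 CPM in wild type and 68.7 to 80.6 CPM in the mutant.

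**Figure D1:**
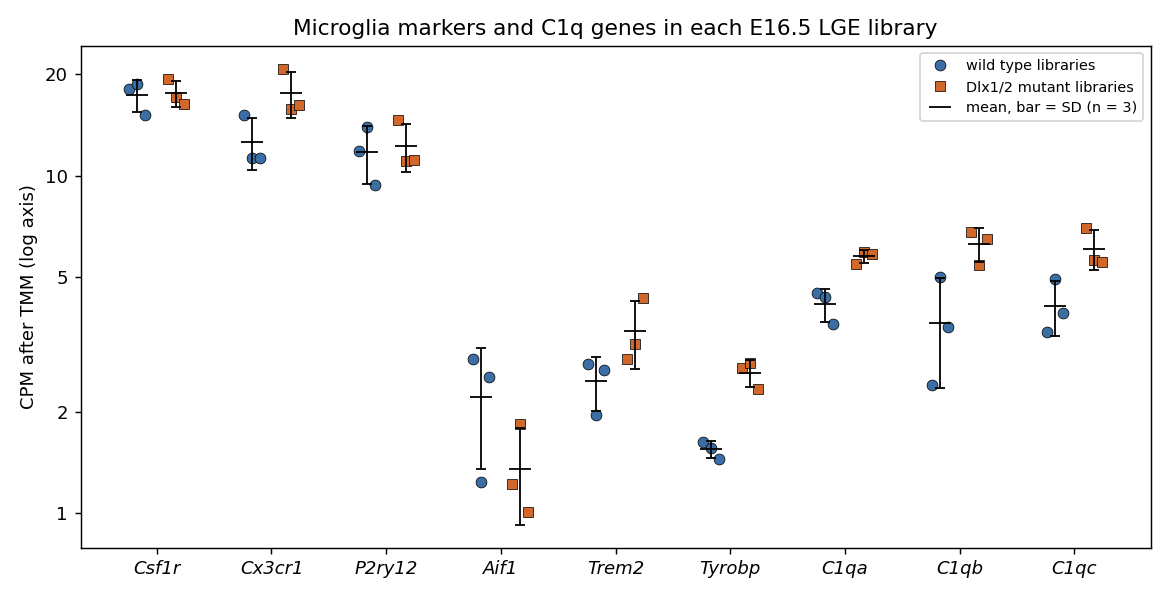
CPM (log axis) of the 9 genes in each of 3 wild type (circles) and 3 Dlx1/2 mutant (squares) libraries, with the mean and SD in black. Cx3cr1, Trem2, Tyrobp and the 3 C1q genes have all mutant points above all wild type points, while Csf1r, P2ry12 and Aif1 overlap.

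Csf1r, the receptor on which microglial survival depends, had the most reads of the 9 in wild type and was not called. It had 189, 287 and 251 reads in wild type replicates 1 to 3, or 18.1, 18.6 and 15.1 CPM, and 316, 270 and 259 reads in mutant replicates 1 to 3, or 19.3, 17.1 and 16.3 CPM. The groups overlapped, with a log2 fold change of 0.024 ± 0.118 (SE) and adjusted p = 0.906. The ratio of the groups' reads was 1.02, with a 95% counting interval of 0.927 to 1.13 (Clopper-Pearson, counting error only).

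P2ry12, the ADP receptor that guides microglial processes, followed Csf1r closely. It stood at 11.9, 13.9 and 9.35 CPM in wild type and at 14.6, 11.1 and 11.1 CPM in the mutant. Wild type replicate 3 was the lowest and mutant replicate 1 the highest, as for Csf1r. The log2 fold change was 0.070 ± 0.211 and adjusted p = 0.813. Over the 6 libraries Csf1r and P2ry12 had Pearson's r = 0.959, which describes values that share libraries and depth. Reads of P2ry12 per 100 reads of Csf1r were 65.6, 74.6 and 61.8 in wild type and 75.6, 64.8 and 68.3 in the mutant.

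Cx3cr1, the receptor for the neuronal chemokine fractalkine, was higher in every mutant library, unlike these receptors, but was not called. It had 158, 174 and 187 reads in wild type and 340, 249 and 257 in the mutant, or 15.1, 11.3 and 11.3 CPM against 20.7, 15.8 and 16.2 CPM. The lowest mutant library, at 15.8 CPM, was close to the highest wild type library, at 15.1 CPM. The mutant was 1.41-fold higher with adjusted p = 0.0556, which misses the threshold (log2 fold change 0.49 ± 0.188). The Wald test of DESeq2 called it, with adjusted p = 0.0393. Without wild type replicate 1, the highest of its group, the log2 fold change was 0.63 and adjusted p = 0.0211, while over the leave-one-out fits adjusted p ran from 0.0211 to 0.167. Per 100 reads of Csf1r, Cx3cr1 had 83.6, 60.6 and 74.5 reads in wild type and 108, 92.2 and 99.2 in the mutant. Reads of Cx3cr1 may include some of genes that it overlaps. Among these, Wdr48 had 7014 reads in wild type and 7658 in the mutant, and Gorasp1 had 1233 and 1309. Csrnp1 had 53 and 97, and Ttc21a 49 and 45. What such sharing does to Cx3cr1 was not tested.

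Aif1, the gene of Iba1, was the only one of the 9 with a lower mean in the mutant. Its reads were few, at 30, 19 and 42 in wild type and 20, 29 and 16 in the mutant, or 2.87, 1.23 and 2.53 CPM against 1.22, 1.83 and 1.01 CPM. Wild type replicate 2 lay among the mutant libraries, so the groups overlapped (log2 fold change -0.68 ± 0.450, adjusted p = 0.227). Its correlation with each of the other 8 genes over the 6 libraries was negative, from -0.896 with C1qb to -0.234 with Trem2.

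Trem2, the lipid receptor, had 29, 30 and 44 reads in wild type and 47, 50 and 69 in the mutant. In CPM this was 2.77, 1.95 and 2.66 against 2.86, 3.16 and 4.34. The groups were apart by a small margin, that between wild type replicate 1 and mutant replicate 1. The log2 fold change was 0.50 ± 0.240 with adjusted p = 0.174, and the ratio of reads was 1.42 with a counting interval of 1.10 to 1.83.

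Tyrobp, the adaptor that carries the signal of Trem2 into the cell, was the 1 gene called. It had 17, 24 and 24 reads in wild type and 44, 44 and 37 in the mutant, or 1.63, 1.56 and 1.45 CPM against 2.68, 2.78 and 2.33 CPM. The groups were well apart. The spread within each was small, with a coefficient of variation of 5.81% in wild type and 9.23% in the mutant. At so few reads, counting error alone gives a wider spread on average, so this spread and the SE drawn from it may be too small. The log2 fold change was 0.75 ± 0.094 with adjusted p = 0.0268, and the ratio of reads was 1.70 with a counting interval of 1.25 to 2.32. The call was lost in 4 of the 6 leave-one-out fits, namely without wild type replicate 2 (adjusted p = 0.0765), wild type replicate 3 (0.0882), mutant replicate 1 (0.0802) or mutant replicate 2 (0.0948). It was also lost with the Wald test of DESeq2 (adjusted p = 0.148). The log2 fold change stayed between 0.70 and 0.82 in the leave-one-out fits.

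The 3 C1q genes each had higher values in every mutant library, and none passed the test. C1qa had 47, 67 and 60 reads in wild type and 90, 94 and 93 in the mutant, or 4.496, 4.35 and 3.62 CPM against 5.49, 5.95 and 5.85 CPM. This was a 1.39-fold difference (log2 fold change 0.48 ± 0.104, adjusted p = 0.0515). Over the leave-one-out fits adjusted p ran from 0.0597 to 0.152, and the Wald test of DESeq2 gave 0.173. C1qa was called in 0 of the 10 alternatives. The 3 mutant libraries lay close together, with a coefficient of variation of 4.22%. Counting error alone gives a wider spread on average at these reads, so the SE of C1qa may be too small.

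C1qb varied more, with 25, 77 and 59 reads in wild type and 112, 86 and 103 in the mutant, or 2.39, 5.003 and 3.56 CPM against 6.83, 5.44 and 6.48 CPM. Wild type replicate 1 was low, less than any other library. The log2 fold change was 0.75 ± 0.318 with adjusted p = 0.0622. Without wild type replicate 2, the highest of its group, it was 1.04 with adjusted p = 0.0243. Over the leave-one-out fits it ran from 0.54, without wild type replicate 1, to 1.04, and adjusted p from 0.0243 to 0.162.

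C1qc had 36, 76 and 65 reads in wild type and 115, 89 and 88 in the mutant, or 3.44, 4.94 and 3.92 CPM against 7.01, 5.63 and 5.53 CPM. Wild type replicate 1 was again the lowest. Mutant over wild type came to 0.55 ± 0.185 on the log2 scale, with adjusted p = 0.0652. Over the leave-one-out fits adjusted p ran from 0.0503 to 0.191, and the Wald test of DESeq2 gave 0.126. C1qc was called in 0 of the 10 alternatives. C1qb and C1qc varied together over the 6 libraries (Pearson's r = 0.952, Spearman's rho = 0.943), and C1qa with them less closely (r = 0.662 and 0.726).

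When group labels were permuted exactly, two-sided, over the 3 and 3 libraries, p = 0.1 resulted for Cx3cr1, Trem2, Tyrobp, C1qa, C1qb and C1qc, the smallest value it allows. The same exact permutation test gave p = 0.2 for Aif1 and p = 0.9 for Csf1r and P2ry12. Of the 9 genes, 5 had p below 0.05 in the authors' deposited table, as did 29.1% of the genes tested here. These were C1qb (0.00266), Cx3cr1 (0.00706), Tyrobp (0.00711), C1qc (0.0108) and C1qa (0.0179). Whether those values are adjusted is not stated with them.

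The genes beside the C1q cluster moved in opposite directions. Ephb2, an ephrin receptor gene 44141 bases beyond C1qb, rose from 113.9 ± 3.12 to 185.5 ± 24.9 CPM (adjusted p = 0.00100). Epha8, another ephrin receptor gene 30616 bases beyond C1qa, fell from 18.5 ± 1.74 to 4.56 ± 0.624 CPM (adjusted p = 2.81e-05). They are named for their position as the nearest tested genes.

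Read ratios within a library do not depend on its depth or scaling. Csf1r and P2ry12 were taken as the reference after their values had been seen, so these ratios are a description. Reads of P2ry12 may include some of Med12l (3515 in wild type and 1749 in the mutant). Those of Csf1r may include some of Hmgxb3 (2891 and 3108). What such sharing does to the ratios was not tested. The 3 C1q genes together had 34.5, 43.9 and 45.3 reads per 100 reads of Csf1r and P2ry12 in wild type, and 57.1, 60.4 and 65.1 in the mutant. Tyrobp had 8.99, 8.36 and 9.56 reads per 100 of Csf1r in wild type and 13.9, 16.3 and 14.3 in the mutant. Both ratios were higher in every mutant library than in any wild type library. Aif1 per 100 reads of Csf1r overlapped between the groups, with 15.9, 6.62 and 16.7 in wild type and 6.33, 10.7 and 6.18 in the mutant.

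**Figure D2:**
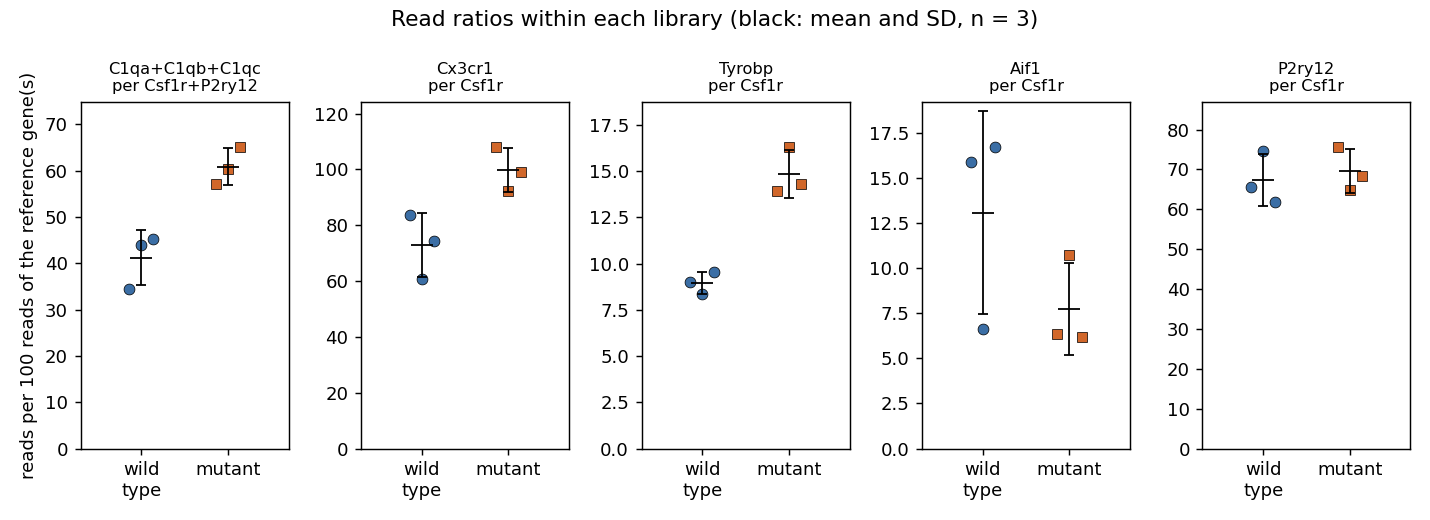
Reads per 100 reads of the reference gene or genes, in each wild type (circles) and mutant (squares) library, with the mean and SD in black; every axis starts at 0. The ratios of C1q, Cx3cr1 and Tyrobp are apart between the groups, and those of Aif1 and P2ry12 overlap.

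Levels can be compared between genes only per length. The deposited FPKM implied a gene length of 1 to 5.62 times the longest principal transcript of GENCODE M21, least for C1qa, C1qb and Tyrobp and most for Trem2. CPM per kilobase of that transcript was used instead. On this scale the 9 genes lay close together in wild type, from P2ry12 at 4.99 ± 0.972 to Trem2 at 2.26 ± 0.410 CPM per kb. Between them came C1qa (3.997 ± 0.451), Csf1r (3.68 ± 0.400), C1qc (3.41 ± 0.634), C1qb (3.36 ± 1.20), Cx3cr1 (2.80 ± 0.491), Tyrobp (2.74 ± 0.159) and Aif1 (2.53 ± 0.987). Every gene overlapped its next neighbour in this order. In the mutant the order began with C1qb at 5.74 ± 0.662 and C1qa at 5.54 ± 0.234 and ended with Trem2 at 3.18 ± 0.717 and Aif1 at 1.55 ± 0.492 CPM per kb. There all neighbours overlapped except Trem2 and Aif1. In the deposited FPKM the wild type means ran instead from C1qa at 3.96 to Trem2 at 0.398, with P2ry12 at 1.31. Both the order and the closeness of the 9 genes in wild type thus depend on the length used.

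**Figure D3:**
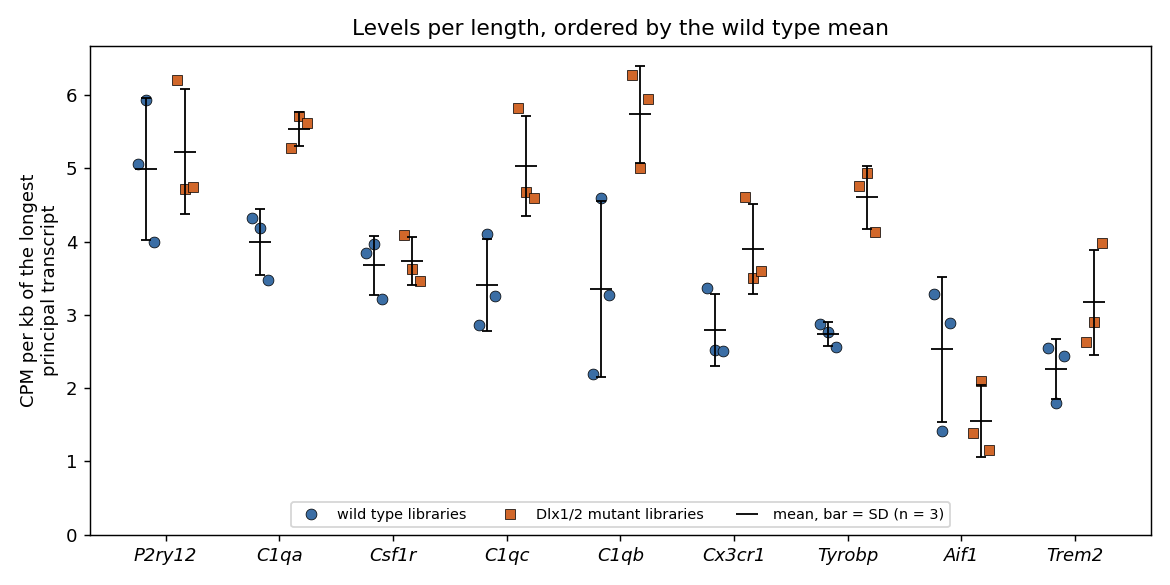
CPM per kb of the longest principal transcript for the 9 genes in each wild type (circles) and mutant (squares) library, ordered by the wild type mean, with mean and SD in black. Wild type means run from 4.99 for P2ry12 to 2.26 for Trem2, and in the mutant C1qb is the highest and Aif1 the lowest.

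A wider list of 12 microglia identity genes gave no call in either direction. Of the 12, 0 had an unadjusted p below 0.05 in edgeR, and 0 were called by DESeq2. Their median log2 fold change was -0.13, and the groups overlapped in all 12, while 41.9% of all genes tested had groups that did not overlap. Tmem119, a microglial membrane protein, was at 2.56 ± 0.649 CPM in wild type and 2.00 ± 0.328 CPM in the mutant. Fcrls, an Fc receptor-like gene, was at 6.72 ± 1.17 and 6.13 ± 0.229 CPM, and the purinergic receptor P2ry13 at 2.55 ± 0.657 and 3.41 ± 0.398 CPM. Sall1, at 145.3 ± 12.7 and 148.3 ± 10.9 CPM, is also a gene of neural progenitors. Ctss was at 6.18 ± 1.22 CPM in wild type and 4.51 ± 0.638 CPM in the mutant. Its p in the authors' deposited table, whose test is not named, was 0.0402. The largest fall of the 12 was that of Olfml3 (log2 fold change -0.59) and the largest rise that of Gpr34 (0.43).

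**Figure D4:**
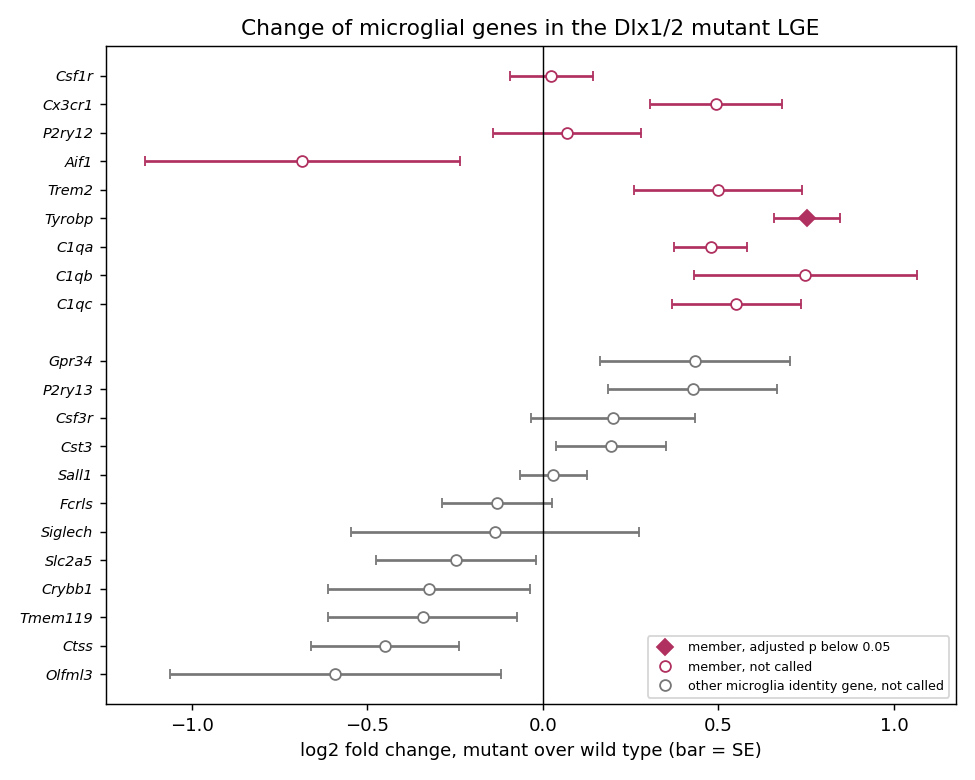
Log2 fold change of mutant over wild type with its SE for the 9 genes (top) and the 12 other microglia identity genes (bottom), with a filled diamond for adjusted p below 0.05. Tyrobp alone is filled; 8 of the 9 genes lie right of 0 against 5 of the other 12.

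Of the myeloid transcription factors, 3 of 8 tested were called higher and 1 lower (median log2 fold change 0.49). Beside this count and those of the lists that follow, 11.2% of all genes tested were called higher and 12.8% lower. Spi1, which encodes PU.1, a factor that myeloid cells need, was at 1.28 ± 0.456 and 1.98 ± 0.637 CPM and was not called (adjusted p = 0.239). Irf8, its partner in microglia, was at 1.98 ± 0.437 and 2.31 ± 0.190 CPM. The called genes are read in other cells too. Fli1, an ETS factor of blood and endothelium, rose from 3.02 ± 0.928 to 15.6 ± 0.765 CPM, and Cebpa from 1.04 ± 0.173 to 2.29 ± 0.0810 CPM. Tal1 was called higher (0.97 on the log2 scale, adjusted p = 0.0345), but kept the call in only 1 of the 6 leave-one-out fits, that without mutant replicate 3. Ikzf1, a factor of lymphoid cells and of striatal neurons, fell from 49.4 ± 6.17 to 3.64 ± 0.201 CPM.

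Among pan-leukocyte and myeloid surface genes, 2 of 13 tested were called higher and 0 lower (median 0.43). Laptm5, a lysosomal protein of leukocytes, went from 7.06 ± 1.02 to 9.84 ± 0.700 CPM with adjusted p = 0.0342, and kept the call in the leave-one-out fits only without wild type replicate 1. Ly86, a partner of a Toll-like receptor relative, went from 1.16 ± 0.654 to 3.07 ± 0.976 CPM with adjusted p = 0.0308. It lost the call without wild type replicate 2 or 3 or mutant replicate 1 or 2 (adjusted p = 0.0724 to 0.106). Ptprc, which encodes CD45, the common antigen of leukocytes, was at 2.17 ± 0.435 and 1.92 ± 0.394 CPM. Cd68, a lysosomal marker of phagocytes, was at 5.24 ± 0.635 and 6.28 ± 0.537 CPM.

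The ligands of the microglial receptors split. Csf1, a ligand of Csf1r, was at 9.37, 9.29 and 9.05 CPM in wild type and at 14.2, 12.7 and 14.4 CPM in the mutant, a rise of 1.49-fold (log2 fold change 0.58, adjusted p = 0.00404). It was called in all 10 alternatives. Il34, the other ligand of Csf1r, was at 1.43, 1.23 and 1.39 CPM in wild type and at 0.853, 0.633 and 0.818 CPM in the mutant. Its mutant values were all lower, and its adjusted p was 0.0517. Cx3cl1, which encodes fractalkine, was at 8.84 ± 3.15 and 9.64 ± 0.511 CPM and was not called. Apoe, a lipid carrier that Trem2 binds, went from 99.7 ± 21.4 to 140.2 ± 8.08 CPM with adjusted p = 0.0336, and kept the call in the leave-one-out fits only without wild type replicate 3. Gas6, a ligand of the receptors Axl, Tyro3 and Mertk, fell from 17.4 ± 2.59 to 11.7 ± 1.33 CPM with adjusted p = 0.0180, but not without wild type replicate 2 (0.0634) or mutant replicate 2 (0.0621). In all, 2 of 8 tested were called higher and 1 lower (median 0.13).

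The complement genes beyond C1q were mostly low or not called. Of 21 listed, 14 were tested, 1 was called higher and 2 lower (median 0.092). Cd46, a regulator that protects cells from complement, rose from 11.8 ± 0.838 to 17.7 ± 1.85 CPM (adjusted p = 0.00711). Hc, which encodes component C5, was rare and fell from 1.03 ± 0.210 to 0.248 ± 0.162 CPM with adjusted p = 0.0158, or 0.0571 without wild type replicate 3. Cd55, another protective regulator, was at 1.31 ± 0.107 and 0.708 ± 0.154 CPM with adjusted p = 0.0480, and lost the call without any 1 of the 6 libraries (0.0599 to 0.141). Of the next parts of the classical cascade, C1s1 was at 0.199 ± 0.0900 and 0.0414 ± 0.0359 CPM and C3 at 0.0957 ± 0.166 and 0.165 ± 0.0679 CPM, too few for the filter. C2 was at 0.653 ± 0.111 and 0.811 ± 0.0162 CPM and was not called. C4a was at 6.30 ± 1.96 and 6.59 ± 3.13 CPM, though its reads may be shared with the near copy C4b. C3ar1, the receptor for the fragment C3a, was at 1.17 ± 0.582 and 1.84 ± 0.528 CPM.

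Of the genes that relay Trem2 and Tyrobp, 8 of 12 were tested and 1 was called. This was Syk, the kinase that docks on phosphorylated Tyrobp, at 4.4004, 4.55 and 3.44 CPM in wild type and at 11.8, 8.79 and 9.50 CPM in the mutant. It rose 2.44-fold (adjusted p = 0.00126) and was called in all 10 alternatives. Syk is not restricted to microglia. Plcg2, an enzyme further along, was at 1.49 ± 0.513 and 1.83 ± 0.107 CPM, and the phosphatase gene Inpp5d at 9.65 ± 1.10 and 7.53 ± 1.14 CPM.

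Among purinergic and phagocytic receptors, 4 of 8 tested were called higher and 0 lower (median 0.30). Entpd1, the ectoenzyme CD39 that breaks down ATP and ADP, rose from 19.6 ± 0.660 to 40.3 ± 3.62 CPM and Axl, a receptor for dying cells, from 29.4 ± 0.528 to 41.9 ± 3.83 CPM. Tyro3 and Megf10 were called at 0.29 and 0.32 on the log2 scale and each kept the call in 2 of the 6 leave-one-out fits. Mertk, the family member most tied to macrophages, was at 2.86 ± 0.137 and 3.09 ± 0.324 CPM.

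In the list of activation and inflammation genes, 1 of 10 tested was called higher and 1 lower (median 0.50). Spp1, which encodes osteopontin, was at 0.765, 1.23 and 0.966 CPM in wild type and at 9.94, 7.85 and 10.2 CPM in the mutant. It rose 9.18-fold (adjusted p = 2.79e-05). Spp1 is made by some microglia and by other cells. Fabp5, a fatty acid binding protein gene that is abundant in progenitors, fell from 241.9 ± 12.1 to 188.9 ± 14.2 CPM. Il1b, Tnf, Ccl2, Cst7 and Clec7a had at most 0.0832 CPM as a mean in either group, below the 0.181 to 0.287 CPM that 3 reads are worth.

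Markers of other immune cells were mostly scarce. Of 15 genes of border macrophages and blood myeloid cells, 3 were tested. Mrc1 was at 0.434 ± 0.268 and 0.603 ± 0.0930 CPM. F13a1, a gene of border macrophages, had 0, 1 and 8 reads in wild type and 14, 12 and 15 in the mutant, with all mutant libraries above and an adjusted p of 0.0676, so it was not called. Without wild type replicate 3 it was called (adjusted p = 0.00665). Pf4 had 0, 0 and 1 reads in wild type and 8, 6 and 4 in the mutant, also with all mutant libraries above, too few for the filter. Its p in the authors' deposited table was 0.000345. The part of these genes' cells in the results for the 9 genes was not tested. The means of Cd163, Ms4a7, Ccr2, S100a8 and S100a9 were at most 0.146 CPM. Lyz2 was called higher, from 1.301 ± 0.479 to 2.95 ± 0.411 CPM (adjusted p = 0.0220), and lost the call without wild type replicate 3 or mutant replicate 1 or 2 (0.0546 to 0.0784). The summed level of this list was 13.7 to 15.8 CPM in wild type and 17.7 to 19.8 CPM in the mutant, mostly Stab1, at 12.4 ± 0.872 and 12.99 ± 0.0468 CPM. Of 9 listed lymphocyte genes, 4 had a row in the table and none of these passed the filter. The summed level of the 4 was 0.455 to 0.765 CPM in wild type and 0.244 to 0.633 CPM in the mutant.

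Markers of other cell types of the tissue moved in both directions, and their part in the results above was not tested. Of 11 endothelial markers, 0 were called higher and 3 lower (median -0.10), with a summed level of 280.6 to 301.2 CPM in wild type and 243.3 to 252.3 CPM in the mutant. Slc2a1, the glucose transporter of the blood-brain barrier, fell from 77.5 ± 4.31 to 59.4 ± 2.10 CPM. Of 8 red blood cell genes 7 were tested, 2 were called higher and 0 lower (median 0.41), and their summed level was 436.3 to 645.2 CPM in wild type and 583.7 to 783.2 CPM in the mutant. Of 9 pericyte and meningeal genes tested 1 was called higher and 2 lower, and of 7 of the oligodendrocyte lineage 2 were higher and 0 lower.

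To find the genes whose pattern was most like that of the 9, each was centred on its mean log2 CPM and the 9 were averaged in each library. This profile was -0.227 to -0.112 in wild type and 0.105 to 0.236 in the mutant. Among 14421 other tested genes with at least 1 CPM, the closest were Pnisr (Pearson's r = 0.998 over the 6 libraries), Ppp4r1l-ps (0.997), BC005624 (0.996), Pdcl (0.996) and Cdc14a (0.996). Pnisr, at 291.6 CPM in wild type and 331.9 CPM in the mutant, is a broadly read nuclear protein gene. None of the 10 closest genes stood in the lists of microglial or complement genes. The closest of any list was Axl, at rank 22, followed by Syk, at rank 25. These are descriptions of values that share their libraries.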

How the data were processed

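One table of the whole series was used. The file headers describe the deposited values as raw counts. The authors deposited FPKM values and a p-value per gene beside these counts, and the p-value's test is not named. Builds GRCm38.p4 and mm10 and the tools edgeR, HISAT2 2.0.4 and StringTie 1.3.0 stand in the submitters' processing notes, with no role. The counter, its annotation and its strand setting are named nowhere in the labels, the notes or the headers. Columns were assigned by the library names in the labels, 25 symbols that had become dates were repaired by gene ID, and 20 rows with a repeated symbol were kept under their ID.

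The tests were run with edgeR 4.0.16 (R 4.3.3): filterByExpr by group, TMM, and the two-sided quasi-likelihood F test of mutant against wild type, adjusted by Benjamini-Hochberg over all 15326 tested genes with a threshold of 0.05. Library totals were 10711630 to 16588359, and 3 reads correspond to 0.181 to 0.287 CPM. SEs come from log2 CPM with 0.5 added to each count. Positions and lengths are from GENCODE M21, promoters from RefSeq. Scripts were tested on simulated counts.

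The members and lists were chosen with earlier results of these data known. Some listed genes are not reported here. Named are the 9 genes, up to 4 called genes per list with the smallest adjusted p (the 2 highest in level where none was called), any gene of the ligand, complement, identity and transcription factor lists, and the 10 most alike by Pearson's r. Some genes are named outside the rule, chosen after their values were seen: the uncalled genes named in the surface, relay, receptor, activation, border and LGE lists, and the genes beside C1q. Alternatives were a replicate block, RLE scaling, DESeq2 1.42.0, no filter on low counts, and each library left out in turn.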

Additional observations from a re-analysis of the deposited data

How the results depend on the processing

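Of the 9 genes, 1 was called higher in the edgeR fit, and 0 to 2 when 1 library was left out: 0 without wild type replicate 3 or mutant replicate 1 or 2, and 2 without wild type replicate 1. None was called lower in any fit. The count was 1 with RLE scaling, without the filter on low counts, with DESeq2 and with the replicate number as a block, but not always of the same gene. The block called Cx3cr1 (adjusted p = 0.0238) and not Tyrobp (0.0783), and DESeq2 called Cx3cr1 (0.0393) and not Tyrobp (0.148). Same-numbered libraries did not vary together (r = -0.176, 0.043 and -0.168 between their deviations from the group means), so the block is given here only. With it 1223 genes were called higher and 1458 lower, against 1715 and 1958 without.

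Some uncalled genes changed sign. When single libraries were left out, the log2 fold change ran from -0.068 to 0.084 for Csf1r, from -0.079 to 0.22 for P2ry12, from -0.19 to 0.39 for C4a, from -0.055 to 0.45 for Cx3cl1 and from -0.020 to 0.098 for Sall1; with the block it was -0.0081 for C4a. The other 7 of the 9 genes kept their direction in all 10 alternatives. Over the alternatives of the 9 genes there were 6 lost calls and 4 gained, and over those of the other genes named from the lists 50 lost and 1 gained. Tyrobp, Aif1 and Trem2 rest on 16 to 69 reads per library.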
